A study of Mus musculus with 6 samples.

Results

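Transcripts of 7 GABA-A receptor subunits were followed in proprioceptors of the mouse: the α subunits Gabra2, Gabra3, Gabra4 and Gabra5, the β subunits Gabrb1 and Gabrb2, and the γ subunit Gabrg1. They were found by symbol among the 36814 genes of the deposited table, where each had 1 entry, and 9 other subunit genes of the family are described beside them. Libraries came from 3 pools of neurons supplying the tibialis anterior muscle (TA), an ankle flexor, and 3 pools supplying the gastrocnemius muscle (GS), an ankle extensor. All mice, TA and GS alike, carried the Pv::YFP reporter, which marks parvalbumin neurons. The tracer ctb-555 was put into 1 of the muscles at postnatal day 0, and labelled neurons were picked by hand into pools of 25 to 30 at postnatal day 1. The labels call the pools biological replicates without saying whether they came from different animals, so p-values measure the spread between pools. Levels are RPKM, reads scaled to gene length and to the size of the library, so that genes can be set side by side. Values of single pools are given in the order of replicates 1, 2 and 3 unless a replicate is named.

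GABA-A receptors are chloride channels opened by GABA, each a ring of subunits that usually combines α, β and γ members. The α subunit shapes GABA sensitivity and drug response, the β subunit takes part in the GABA site and in surface delivery, and the γ subunit takes part in clustering and in the benzodiazepine site. Sensory neurons keep a high internal chloride, so that these channels depolarize their axons, and inputs from spinal GABA neurons onto the central terminals of proprioceptors work through them in presynaptic inhibition.

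Gabra5 and Gabrg1 had the highest levels of the 7 members in all 6 pools. Gabra5 averaged 34.7 ± 4.07 RPKM over the GS pools and 14.1 ± 3.12 over the TA pools (SD, n = 3), and Gabrg1 averaged 22.0 ± 1.90 and 12.2 ± 3.75 RPKM. Gabra3, lower than both in every pool, averaged 4.30 ± 2.75 RPKM over the GS pools and 0.666 ± 0.228 over the TA pools. In these 3 members every GS pool lay above every TA pool, as in 3.48% of all genes tested, but no member passed the test over all genes. Gabra3 entered that test only through its level in the GS pools. In pools of cells, fewer neurons that express a gene and less RNA per neuron cannot be told apart.

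The subunit genes lie in clusters that mix classes, and in mm9 the members occupy 4 of them. On chromosome 5, Gabrg1 (71142286 to 71233856, minus strand), Gabra2 (71352296 to 71487088, minus), Gabra4 (71960973 to 72049547, minus) and Gabrb1 (72091171 to 72529628, plus) sit within 1.39 Mb. Gabra5 (chromosome 7, 64663060 to 64765379, minus) lies 20.5 kb from Gabrg3. Gabra3 (chromosome X, 69678020 to 69902187, minus) lies between Gabre and Gabrq, and Gabrb2 (chromosome 11, 42233259 to 42446092, plus) beside Gabra6. Neighbours could differ in level. Within the chromosome 5 cluster Gabrg1 was above Gabra2, Gabra4 and Gabrb1 in every pool.

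The 250 bases before the RefSeq start (build GRCm38.p6, minus strand, 5′ to 3′) are shown for the 3 members whose GS and TA values did not overlap, since these differed in the same direction. Capitals mark matches, on either strand, to the letters TGTGGT (the core bound by RUNX factors such as Runx3), CCGGAA (a core bound by ETS factors such as Etv1) or TATAAA (the TATA box). Runx3 and Etv1 are transcription factors of proprioceptors. Gabra5 spans chr7:57510060-57510309, Gabrg1 chr5:70842618-70842867, and the first of the RefSeq starts of Gabra3 chrX:72656920-72657169.
Gabra5: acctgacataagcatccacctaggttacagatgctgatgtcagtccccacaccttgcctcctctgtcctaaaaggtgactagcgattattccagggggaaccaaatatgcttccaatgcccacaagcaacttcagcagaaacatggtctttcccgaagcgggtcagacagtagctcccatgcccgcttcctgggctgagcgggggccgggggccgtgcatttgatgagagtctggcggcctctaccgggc
Gabrg1: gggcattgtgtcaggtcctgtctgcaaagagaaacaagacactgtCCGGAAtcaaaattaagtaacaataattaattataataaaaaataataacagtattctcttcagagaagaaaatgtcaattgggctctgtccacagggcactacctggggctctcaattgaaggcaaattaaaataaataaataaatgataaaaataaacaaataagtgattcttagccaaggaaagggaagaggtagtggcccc
Gabra3: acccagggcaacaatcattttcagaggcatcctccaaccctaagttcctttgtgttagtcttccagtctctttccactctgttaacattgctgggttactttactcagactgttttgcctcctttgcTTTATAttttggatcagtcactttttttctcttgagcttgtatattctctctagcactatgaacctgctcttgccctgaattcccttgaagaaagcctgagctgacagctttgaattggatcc
These windows shared none of the searched letters. The Gabra5 window held no match and 9 CG pairs, against a median of 6 over 32851 promoter windows of that length. The Gabrg1 window held 1 CCGGAA, which 12.0% of all windows hold, and 1 CG pair. The Gabra3 window held 1 TATAAA on the opposite strand, which 12.4% of all windows hold, and no CG pair. TGTGGT, in 14.0% of all windows, was in none of these windows. A match here describes letters and not binding, which was not measured.

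Among the α subunits, Gabra5 encodes α5, known for receptors outside synapses that carry a lasting current. Its levels were 32.5, 39.4 and 32.2 RPKM in the GS pools and 14.6, 10.7 and 16.9 RPKM in the TA pools. The lowest GS pool was thus well above the highest TA pool, and the ratio of means was 2.46. The log2 fold change, TA minus GS on log2(RPKM + 1), was -1.26 ± 0.33 (SE), with a 95% interval of -1.99 to -0.52. The unadjusted p was 0.00326 and the Benjamini-Hochberg adjusted p was 0.254 with limma over 10828 genes. Gabra5 rested on 375 to 2061 net reads per pool, so that counting error was small beside the spread between pools.

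Gabra3 encodes α3, a synaptic α subunit of many brainstem and spinal neurons. It measured 7.36, 2.04 and 3.48 RPKM in the GS pools against 0.551, 0.929 and 0.518 RPKM in the TA pools. All GS pools were above all TA pools, with a 3.61-fold range among the GS pools themselves. Its ratio of means, 6.45 for GS over TA, was larger than that of Gabra5 or Gabrg1. The log2 fold change was -1.55 ± 0.50 (SE, interval -2.67 to -0.43), with an adjusted p (limma) of 0.352. The authors' deposited table for the GS direction holds Gabra3, with a signal of 1034 for GS and 124.6 for TA, a ratio of 8.30, a p of 0.0126 and an adjusted p of 0.525. It is the 1 of the 16 subunit genes described that the authors' deposited tables hold, and they list 0.907% of all 36814 genes as higher in GS. Because TA levels are below 1 RPKM, the pseudocount compresses this difference: with a pseudocount of 0.1 the log2 fold change was -2.37, and with limma voom on net reads it was -2.70.

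Gabra2 encodes α2, the synaptic subunit long associated with presynaptic GABA receptors of sensory axons. It measured 6.27, 3.62 and 5.46 RPKM in the TA pools against 10.6, 0.763 and 4.30 RPKM in the GS pools. The TA pools lay inside the GS range, in which GS replicate 1 was 13.9-fold above GS replicate 2. These GS values were apart by more than counting error, with 95% Poisson intervals of 9.64 to 11.7 and 0.534 to 1.06 RPKM from 424 and 36 net reads. The log2 fold change was 0.33 ± 0.63, with an interval of -1.06 to 1.73 and an adjusted p (limma) of 0.884. Without GS replicate 2 it was -0.39 and without GS replicate 1 it was 0.97, so the direction turned with 1 pool.

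Gabra4 encodes α4, a partner of the δ subunit in receptors outside synapses. It measured 0.714, 1.05 and 0.301 RPKM in the TA pools against 0.0145, 1.19 and 0.387 RPKM in the GS pools, where GS replicate 1 held 1 net read. The groups overlapped, and the mean was under the 1 RPKM needed to enter the test. Without that minimum the log2 fold change was 0.19 ± 0.36, with an interval of -0.66 to 1.04 and an adjusted p (limma) of 0.855.

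**Figure D1:**
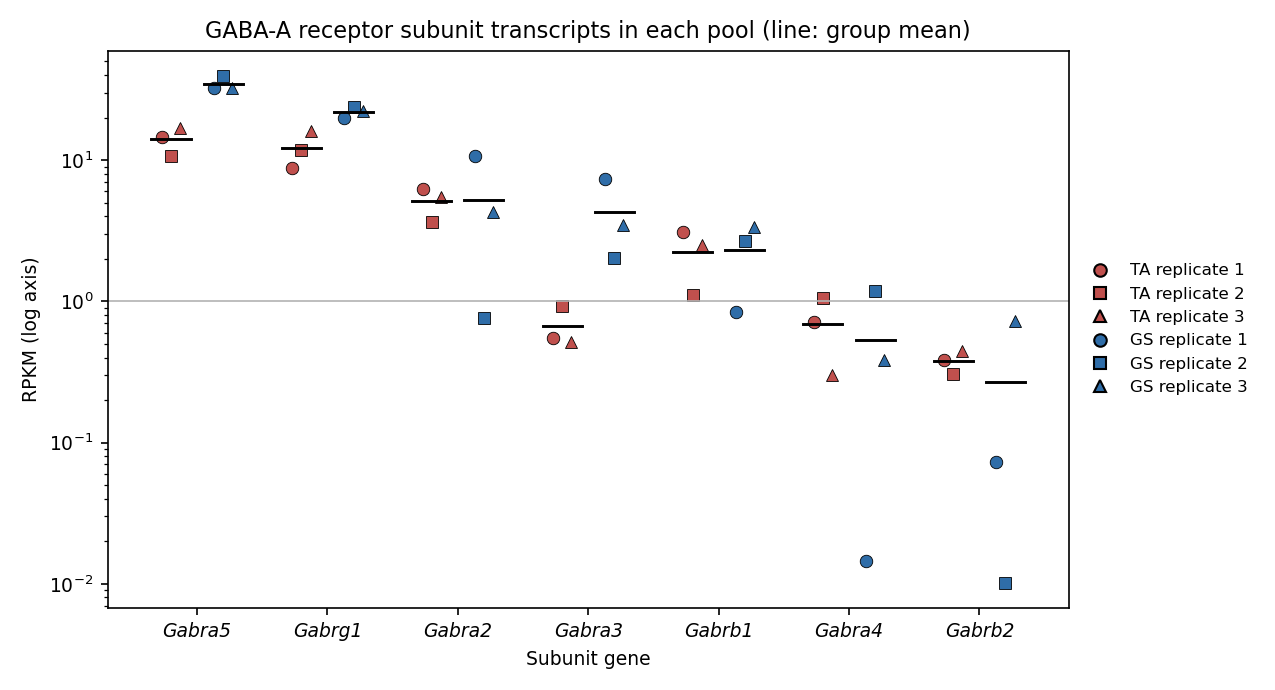
RPKM on a log axis of the 7 members in each of 3 TA pools (red) and 3 GS pools (blue). Short black lines are group means and the grey line marks 1 RPKM. The GS points of Gabra5, Gabrg1 and Gabra3 lie above all their TA points, while the other members overlap and Gabra2, Gabra4 and Gabrb2 spread widest among GS pools.

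The β members were low. Gabrb1, encoding β1, measured 3.12, 1.11 and 2.49 RPKM in the TA pools against 0.835, 2.67 and 3.37 RPKM in the GS pools. The groups overlapped fully, and the log2 fold change was 0.01 ± 0.51, with a 95% interval of -1.12 to 1.15 that leaves room for differences of more than 1 log2 unit either way (adjusted p = 0.994, limma). Gabrb2, encoding β2, a common subunit of the adult brain, measured 0.383, 0.306 and 0.446 RPKM in the TA pools against 0.0725, 0.0102 and 0.722 RPKM in the GS pools. Its TA pools were close to each other, whereas its GS pools ranged from 2 to 121 net reads. Without the minimum level its log2 fold change was 0.16 ± 0.22 (interval -0.37 to 0.70, adjusted p = 0.800, limma).

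Gabrg1 encodes γ1, a γ subunit of restricted expression whose receptors respond weakly to benzodiazepines. It measured 20.0, 23.8 and 22.1 RPKM in the GS pools against 8.74, 11.7 and 16.2 RPKM in the TA pools. GS pools differed by 1.19-fold among themselves and TA pools by 1.85-fold, with TA replicate 3 nearest to the GS pools. The ratio of means was 1.80 for GS over TA, and the log2 fold change was -0.83 ± 0.36 (interval -1.62 to -0.05, unadjusted p of 0.0401, adjusted p = 0.460, limma).

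Of the 7 members, 5 entered the test and none was called at an adjusted p under 0.05, where 0.305% of all genes tested were called. At an unadjusted p under 0.05 there were 3, all higher in GS, where 2.12% of genes tested passed in that direction. That number was 2 when any 1 pool other than TA replicate 3 was left out, Gabra3 failing without GS replicate 1 and Gabrg1 without each of the others. The values of the same 3 members did not overlap, against 3.48% of all genes tested with GS above TA and 13.1% with TA above GS. Gabra3 reached the minimum level only through the GS pools, so it had to differ to be tested. Over all genes tested the median log2 fold change was 0.24 towards TA. Relative to that shift the values were -1.50 for Gabra5, -1.79 for Gabra3, -1.07 for Gabrg1, 0.09 for Gabra2 and -0.22 for Gabrb1.

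**Figure D2:**
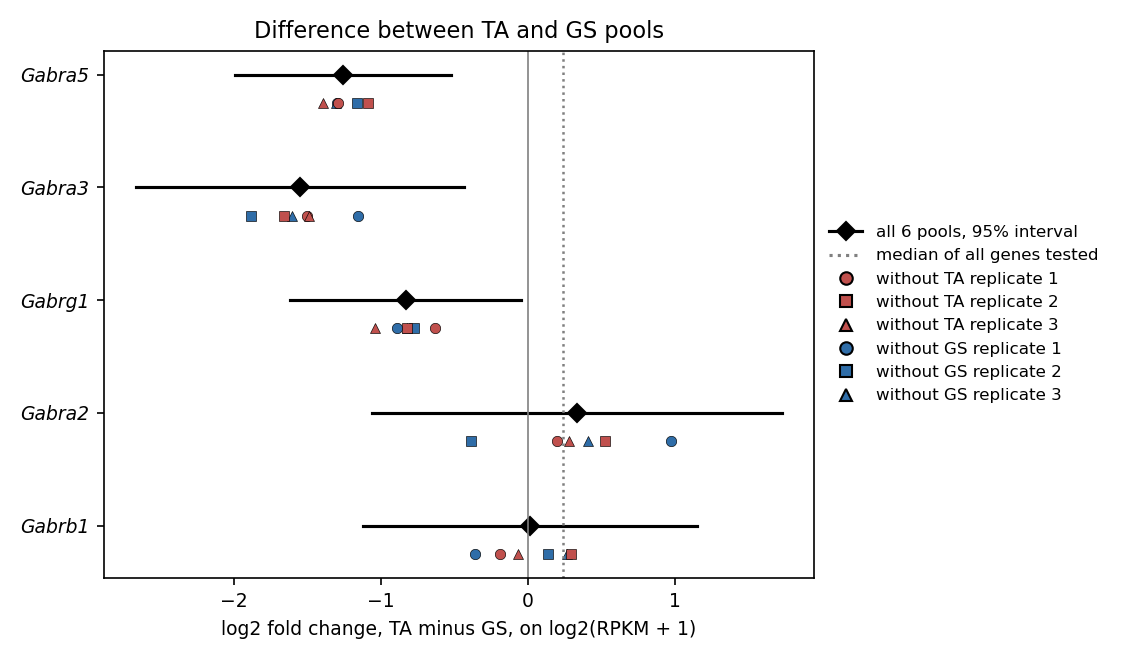
Log2 fold changes, TA minus GS on log2(RPKM + 1), of the 5 tested members as diamonds with 95% intervals, and the values with 1 pool left out as small symbols below. Gabra5, Gabra3 and Gabrg1 stay left of 0 whichever pool is left out, with Gabra5 between -1.39 and -1.09, while Gabra2 and Gabrb1 fall on both sides.

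The order of transcripts was then compared within pools. In each of the 6 pools Gabra5 was the highest α member and Gabrb1 was above Gabrb2. Gabra5 exceeded Gabrg1 in all GS pools without overlap between the genes, whereas in TA their ranges overlapped and Gabrg1 was the higher in TA replicate 2. In every TA pool these were followed by Gabra2 and then Gabrb1. In GS replicates 1 and 3 they were followed by Gabra2, Gabra3 and Gabrb1, and in GS replicate 2 by Gabrb1 and Gabra3, with Gabra2 below Gabra4. Transcript levels of whole cells do not show which subunits assembled, or which receptors reached the afferent terminals, neither of which was measured.

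As a share of the summed RPKM of the 4 α members, Gabra5 made up 65.7% to 72.9% in TA pools and 64.3% to 90.8% in GS pools, and these ranges overlapped. Gabra2 made up 22.2% to 28.3% in TA and 1.76% to 21.1% in GS, without overlap, although its levels overlapped. Most of the α sum was Gabra5, itself higher in all GS pools, and the ratio of Gabra2 to Gabra5, given below, overlapped between the muscles. Gabra3 made up 2.23% to 5.69% in TA and 4.71% to 14.6% in GS. Of the summed RPKM of all 7 members Gabra5 held 36.4% to 42.5% in TA and 45.5% to 56.4% in GS, with no overlap. That sum was 29.5 to 42.3 RPKM in TA and 66.6 to 71.3 RPKM in GS. Most of it was Gabra5 and Gabrg1, while the levels of Gabra2, Gabra4, Gabrb1 and Gabrb2 overlapped between the muscles. Shares within a pool do not depend on the library total by which RPKM is scaled.

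**Figure D3:**
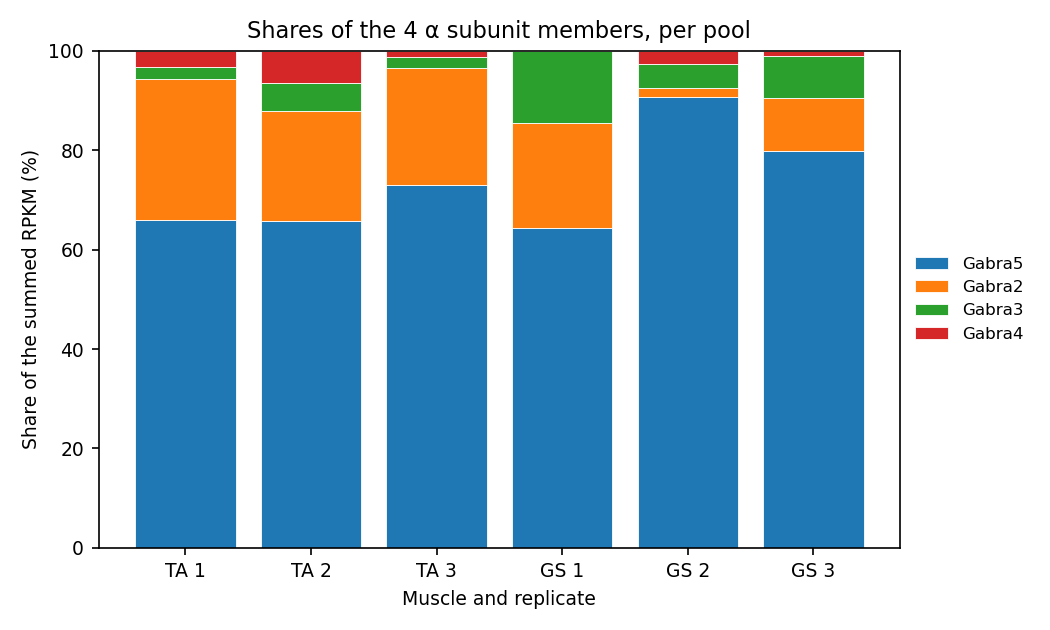
Stacked bars of the share (%) that each of the 4 α members holds of their summed RPKM, for TA and GS replicates 1 to 3. Gabra5 is the tallest part of every bar, and the Gabra2 part is 22.2% to 28.3% in TA and 1.76% to 21.1% in GS.

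Ratios between subunits in the same pool, chosen after the values were seen, are free of that scaling as well. Gabra5 over Gabrg1 was 1.67, 0.914 and 1.04 in the TA pools and 1.62, 1.66 and 1.45 in the GS pools. The ranges overlapped through TA replicate 1, and the other TA pools lay below all GS pools. Gabra3 over Gabra5 was 0.0378, 0.0865 and 0.0306 in TA and 0.227, 0.0518 and 0.108 in GS, which overlapped as well. GS replicate 1 had the highest ratio, and GS replicate 2 lay below TA replicate 2. Gabra2 over Gabra5 was 0.430, 0.337 and 0.323 in TA and 0.327, 0.0194 and 0.134 in GS, overlapping through GS replicate 1. Gabra2 over Gabrg1 was 0.717, 0.308 and 0.337 in TA and 0.532, 0.0321 and 0.194 in GS, which also overlapped.

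The 9 other subunit genes were at low levels or listed at 0. Gabrg3, encoding γ3, averaged 0.399 ± 0.257 RPKM over the TA pools and 0.817 ± 0.857 over the GS pools, with its highest value, 1.80 RPKM, in GS replicate 1. Gabrr1, encoding ρ1, reached at most 0.663 RPKM, in TA replicate 3. Gabrd, Gabrq and Gabrr3 had 4, 13 and 5 net reads over all pools, all in TA. Gabra6, Gabre, Gabrp and Gabrr2 were listed at 0 in every pool.

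Genes whose levels were most like those of a member over the 6 libraries were named by Pearson correlation of log2(RPKM + 1) among genes with a mean of at least 10 RPKM. For Gabra5 they were Ak5 (0.984) and Rgs4 (0.981), for Gabrg1 Serpini1 (0.985) and Ddah1 (0.973), and for Gabra3 Galnt13 (0.973) and Rasl11b (0.955). For Gabra2 they were Def8 and Eif4h (0.981 each), and for Gabrb1 Rtn4rl1 (0.967) and Eno2 (0.936). These are the highest of 2694 or 2695 candidates over 6 points that share libraries and depth, and are a description only.

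Genes that act with GABA-A receptors were counted next. Of 18 genes of assembly, trafficking and anchoring, all 18 were tested and none was called by limma, with none at an unadjusted p under 0.05 and a median log2 fold change of 0.34 against 0.24 for all genes. Gabarapl1 and Gabarap, ubiquitin-like proteins of receptor trafficking and autophagy, had the highest means over all 6 pools, with means of 119 ± 12.6 and 31.4 ± 16.9 RPKM over the TA pools and 91.2 ± 43.0 and 50.4 ± 14.0 over the GS pools. Arfgef2, an exchange factor of vesicle traffic, had the smallest p, with means of 9.94 ± 1.92 RPKM over the TA pools and 5.41 ± 2.20 over the GS pools (adjusted p = 0.533, limma).

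Of 5 genes of the contact between GABA axons and sensory terminals, all were tested and none was called. Cntnap4, a contactin-associated protein known at these contacts, measured 10.3, 9.85 and 10.2 RPKM in the TA pools against 0.210, 7.39 and 0.170 RPKM in the GS pools. GS replicate 2 stood near the TA pools and the other GS pools far below them (log2 fold change 2.28 ± 0.70, adjusted p = 0.322, limma). Nrcam, a neuronal adhesion protein, averaged 5.37 ± 1.34 RPKM over the TA pools and 3.65 ± 2.84 over the GS pools. Of the list 1 gene, Cntnap4, had an unadjusted p under 0.05, where 8.30% of all genes tested passed in the TA direction, and the median was 0.15.

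Of 4 chloride cotransporters, 2 were tested and none was called, and 1, Slc12a2, had an unadjusted p (0.0493) under 0.05, where 2.12% of all genes tested passed higher in GS. Slc12a2 encodes NKCC1, which loads sensory neurons with chloride, and measured 4.34, 8.61 and 5.24 RPKM in the GS pools against 2.12, 2.45 and 3.16 RPKM in the TA pools. The groups did not overlap, as in 3.48% of all genes tested with GS above TA, and the adjusted p (limma) was 0.478. Slc12a7, a potassium chloride exporter, averaged 3.28 ± 3.45 RPKM over the TA pools and 3.33 ± 3.06 over the GS pools. The GABA-B receptor genes Gabbr1 and Gabbr2, which encode the metabotropic GABA receptor, averaged 44.9 ± 8.60 and 28.8 ± 4.29 RPKM over the TA pools and 31.1 ± 5.62 and 36.0 ± 17.8 over the GS pools, and neither passed the test (limma adjusted p = 0.620 and 0.872).

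The genes that make and package GABA were at or near 0. Gad1 and Slc32a1, the GABA synthesis enzyme and the vesicle transporter, were listed at 0 in every pool, and Gad2 had 2 net reads, in TA replicate 2. Of the 8 genes of GABA synthesis and transport, 2 were tested, Abat and Aldh5a1, which break GABA down. They averaged 6.36 ± 0.900 and 7.92 ± 1.89 RPKM over the TA pools and 5.67 ± 4.55 and 6.59 ± 2.83 over the GS pools, and neither was called.

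The pools were checked for their cell type and for other cells. All 10 proprioceptor markers were above 0 in every library, Whrn with 6 net reads in GS replicate 2. Their sum was 6802 to 9840 RPKM in GS and 7047 to 8491 RPKM in TA, mostly from Nefl and Nefm, neurofilament genes. Proprioceptor markers differed in both directions. Spp1, a secreted phosphoprotein, was called, higher in GS, with means of 56.5 ± 16.9 RPKM over the GS pools and 5.36 ± 2.25 over the TA pools (adjusted p = 0.0150, limma). Etv1 also lay higher in all GS pools than in all TA pools, as did 3.48% of all genes tested. It averaged 319 ± 5.59 RPKM over the GS pools and 227 ± 32.1 over the TA pools (adjusted p = 0.524, limma). Pvalb, which encodes parvalbumin, averaged 70.1 ± 22.8 RPKM over the TA pools and 15.3 ± 14.2 over the GS pools without overlap (adjusted p = 0.168, limma). Of all genes tested, 13.1% had TA above GS without overlap. Whrn, like Pvalb, had an unadjusted p (limma) under 0.05 with TA above GS, where 8.30% of all genes tested passed. Whrn averaged 0.351 RPKM over the GS pools. It reached the minimum of 1 RPKM only through the TA pools, so it had to differ to be tested. The part of these marker differences in the subunit differences was not tested. Net reads in genes numbered 8348117 to 12226365 in GS and 7038296 to 21125960 in TA. Of 6 GABA interneuron markers 5 were listed at 0 in every pool, and Chat and Mnx1 of motor neurons likewise, whereas Isl2 of the motor neuron list measured 1.70 to 3.43 RPKM in TA and 2.29 to 7.46 RPKM in GS. The 9 nociceptor markers summed to 31.4 to 176 RPKM in GS and 41.4 to 90.1 RPKM in TA, with Mrgprd listed at 0. Calca and Tac1, which encode peptides, had the highest means of this list over all 6 pools, but Calca was listed at 0 in GS replicate 3 and Tac1 in GS replicate 2. Calca was above Pvalb in GS replicates 1 and 2 (50.2 and 133 RPKM against 4.26 and 10.4) and TA replicate 3 (55.2 against 47.8). In the other pools Calca was below Pvalb. Of the satellite glia and Schwann cell markers, 8 summed to 95.7 to 190 RPKM in GS and 87.8 to 152 RPKM in TA, led by Fabp7 and Pmp22. Sparc and Apoe of these averaged 22.2 and 18.3 RPKM over the GS pools and 12.7 and 10.5 RPKM over the TA pools, with overlapping values (limma adjusted p = 0.614 and 0.624). P2rx3, an ATP receptor of nociceptors, lay higher in all GS pools than in all TA pools, as did 3.48% of all genes tested. Its means were 16.3 ± 6.94 RPKM in GS and 4.04 ± 0.849 in TA (adjusted p = 0.205, limma). Tac1 went the other way in mean, with 21.2 ± 9.67 RPKM in TA and 6.70 ± 10.4 in GS, and its groups overlapped (adjusted p = 0.387, limma). The part of these other cells in the subunit differences was not tested. The 7 skeletal muscle markers, led by Acta1 and Actc1, came to 280 RPKM together in TA replicate 3 and at most 5.01 RPKM in the others. Mylpf and Myh3 of this list were listed at 0 in every GS pool and reached 35.1 and 43.2 RPKM in TA replicate 3. Without TA replicate 3 the log2 fold changes were -1.39 for Gabra5, -1.49 for Gabra3 and -1.04 for Gabrg1.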

How the data were processed

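RNA of 6 proprioceptor pools, 3 TA and 3 GS, was made into cDNA with the Ovation RNA-Seq System V2 kit and into Nextera libraries for paired-end sequencing, per the labels' protocols. Bowtie 0.12.9, DESeq and the mouse build mm9 are named in the submitters' processing notes. For the assignment of reads to genes, program and strand setting were not given in the sources used here. Per the file headers, the authors deposited whole-number reads and a score per gene and library named RPKM. Both hold values below 0 in 683 of 36814 genes, so reads are called net reads, and no subunit gene has such a value. RPKM was found to be the net reads over gene length and 1 total per library (13167570 to 32977601). The tables of genes higher in 1 muscle hold the authors' signal for each muscle, a ratio (fold, GS over TA), its log2 and p-values, per the file headers. The table's gene ends were moved back by 1 base, as in those tables (728 of 728 genes compared).

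Genes with a value below 0 were left out, 1 entry per symbol was kept (highest mean), and genes with a mean of at least 1 RPKM entered. The fit, TA against GS, used limma 3.58.1 (R 4.3.3) on log2(RPKM + 1) with a trended prior and a single group term, two-sided, and p-values were adjusted by Benjamini-Hochberg over 10828 genes. This scale understates changes of low genes. Intervals on reads are exact Poisson intervals and cover counting error only. On simulated data of 10828 genes 73.6% of 4-fold changes and 96.6% of 8-fold changes were found, none of them in the wrong direction, with 8 false calls per simulation on average. The simulated folds were steps on log2(RPKM + 1), and genes of similar level were given the same spread. These rates therefore need not hold for single genes or for ratios of RPKM. Promoter sequences are from RefSeq (GRCm38.p6), where 7 of 7 members matched by symbol. The members and gene lists were chosen with earlier results of these data known. Some genes of the family and of the lists are not reported here and are not in their counts. Named genes were the other subunits, and from each other list the members called, or else the 2 with the smallest p, and the 2 with the highest mean. For each tested member the 2 genes of most similar level were also named. Same-numbered pools did not deviate together (correlations of -0.07, -0.02 and -0.14), so replicate numbers were not used as pairs.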

Additional observations from a re-analysis of the deposited data

How the results depend on the processing

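Tested subunits were refitted under 14 alternatives. Of the 68 values obtained none passed an adjusted p of 0.05, and 60 kept their direction, among them all those of Gabra5, Gabra3 and Gabrg1. Other minimum levels and the replicate block leave the fold change itself as it was, so no direction could turn there. Gabra3 and Gabrb1 gave no value with a minimum mean of 5 RPKM. Gabrb1 turned to -0.19 with median centring, -0.33 with quantile normalization and -0.0091 with limma voom on net reads, and Gabra2 to -0.016 with quantile normalization. With 1 pool left out Gabra5 ranged from -1.39 to -1.09, Gabra3 from -1.89 to -1.16, Gabrg1 from -1.04 to -0.63, Gabra2 from -0.39 to 0.97 and Gabrb1 from -0.36 to 0.30. The causes were not tested.

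Over all genes, 19 were called higher in TA and 14 higher in GS. A pseudocount of 0.1 gave 7 and 6, a minimum of 5 RPKM 9 and 8, limma voom 7 and 5, and no minimum 0 and 0 of 18604 genes (1251 and 250 at an unadjusted p under 0.05). Median centring gave 11 and 17 and quantile normalization 16 and 19, and the shift of 0.24 towards TA became 0.03 and 0.0042. With the replicate block there were 8 and 8, and no subunit's call changed at the adjusted threshold. The members at an unadjusted p under 0.05 then numbered 2 in place of 3, with Gabrg1 at 0.0774 (limma). Gabrg1 was also above 0.05 without GS replicate 2 or 3 or TA replicate 1 or 2 (0.0647, 0.0764, 0.164 and 0.0920 in limma), and Gabra3 without GS replicate 1 (0.0552). Leaving out 1 pool gave 1 to 19 higher in TA and 1 to 10 higher in GS: 3 and 3, 19 and 10, and 16 and 7 without GS replicates 1, 2 and 3, and 1 and 2, 1 and 2, and 1 and 1 without TA replicates 1, 2 and 3. With 3 pools per muscle and pools of 25 to 30 neurons, the intervals of Gabra2 and Gabrb1 span more than 1 log2 unit on each side of 0, and members under 1 RPKM rested on as little as 1 net read in a pool.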

Other observations

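Glycine receptors, the related inhibitory chloride channels, were measured in the same pools. Glra2, the α2 subunit of embryonic glycine receptors, measured 2.27, 2.60 and 2.45 RPKM in the TA pools against 0.266, 0.0483 and 0.488 RPKM in the GS pools. The TA pools were close together and all above the GS pools, as in 13.1% of all genes tested, with a 9.11-fold ratio of means. It reached the minimum of 1 RPKM only through the TA pools, so it had to differ to be tested. It rested on 471 net reads in TA and 43 in GS, and its log2 fold change was 1.45 ± 0.46, with an adjusted p (limma) of 0.336 over all genes. Glrb, the β subunit that anchors glycine receptors to gephyrin, averaged 23.7 ± 8.55 RPKM over the TA pools and 16.5 ± 6.61 over the GS pools (SD, n = 3; adjusted p = 0.706, limma), and the groups overlapped. Of 5 glycine receptor genes 2 were tested and none was called. Gphn, which encodes gephyrin, the scaffold shared by both receptor families, measured 18.8, 16.4 and 22.9 RPKM in the TA pools against 14.9, 13.0 and 11.7 RPKM in the GS pools, singled out after its values were seen, with an adjusted p (limma) of 0.636. Its TA pools too were all above its GS pools, as in the same 13.1% of all genes tested.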
